A study of Oryza sativa with 2 samples.

Results

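The PT family of rice phosphate transporters was examined at 7 loci, each followed on an oligonucleotide array by the probes whose systematic name starts with its locus identifier. The loci were PT1 (Os03g0150600), PT2 (Os03g0150800), PT4 (Os04g0186400), PT6 (Os08g0564000), PT7 (Os03g0136400), PT8 (Os10g0444700) and PT11 (Os01g0657100), 7 of 23767 loci with a probe on the array. They carried 24 probes with 1 spot each. The RNA came from root hairs, thin extensions of single cells at the root surface. The hairs had been rubbed off frozen seminal roots of rice seedlings grown for 3 days on MSO medium (cultivar label Don-gin). The single group, titled 07g39940 over, consisted of samples 1 and 2 on 1 array each (n = 2), numbered in their titles. The labels do not say what "over" stands for, whether the samples are separate lines or plantings, or how a line was made, and no untransformed group was analysed here. The files therefore allow a description of the levels and of how far the samples stand apart, with no test, and the spread between the samples may be technical.

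Transporters of this family carry phosphate together with protons across the plasma membrane and are the main route by which plant roots take phosphate from the soil. Root hairs lie at that interface, since phosphate diffuses slowly in soil and hairs widen the volume that a root can deplete. In rice, PT2 is known as a low-affinity carrier that moves phosphate toward the shoot, PT4, PT6 and PT8 take part in high-affinity uptake, and PT1 serves uptake when phosphate is ample. PT11 is induced in root cells that house mycorrhizal fungi. In the reference gene table, PT1 and PT2 are neighbours on chromosome 3 with 0 protein-coding genes between them, and PT8 has the same relation to its paralog PT3 on chromosome 10.

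The array was checked first. Of spots that were not controls, 83.2% in sample 1 and 85.0% in sample 2 were called well above background by the scanner software, and 0 spots were saturated. Random-sequence and artificial control probes, which have no intended target in rice, were at most 44.3 (sample 1) and 48.3 (sample 2) in arbitrary units of processed Cy3 signal. Of 5 root hair growth markers, listed with earlier results of these data known, 3 had a probe used here. All 3 were detected in both samples, as were 83.9% of all loci. They were CSLD1, a cellulose synthase-like protein of hair elongation (46042 and 51117), XXT1, a xyloglucan xylosyltransferase (48800 and 47716), and RBOH5, an NADPH oxidase (14139 and 13972).

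Of the 7 transporters, PT1, PT2, PT4, PT6 and PT8 were well above background in both samples, and PT7 and PT11 were so in neither. The count of 5 of 7 (71.4%) stands beside 83.9% of the 23303 loci that kept a probe once spots with an outlier flag were left out, detected in the same way. The same 5 transporters exceeded the brightest random or artificial control probe in both samples by their highest probe, as did 69.5% of those loci. Each signal below is given for sample 1 and then sample 2, with the error that the scanner software assigns to the spot, which was 10% to 11.0% of the signal for the detected probes. Probes bind with different efficiency, so signals of different probes are set side by side and do not order the amounts of RNA.

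PT2 gave signals of 9997 or more at every one of its probes. The levels of these probes followed the transcript part in their names only in part. Both probes spanning coding sequence and 3' untranslated region (CDS+3'UTR) were brightest. The AK108907 probe gave 55577 ± 5558 and 52455 ± 5245, and the AY332471 probe gave 51333 ± 5133 and 52629 ± 5263. These signals were level between the samples. The coding-sequence probe AF536959 gave 26322 ± 2632 and 28729 ± 2873. The other coding-sequence probes were dimmer and close to one another, from 9997 (AF281000) to 12161 (AF259979) in sample 1 and from 13753 (AF281000) to 16768 (AF280999) in sample 2. The spot of AF259977 among them carried an outlier flag and was left out of the averages. All of these were higher in sample 2, so the brighter probes of PT2 did not show the difference that its dimmer ones showed.

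PT8 was measured by 2 probes that lay far apart. The probe AK101170, assigned to transcript 1 in the files, gave 32717 ± 3272 and 37181 ± 3718. The probe AK069054, assigned to transcript 2, gave 520 ± 52.0 and 648 ± 64.8. The brighter probe exceeded the dimmer one 63.0-fold in sample 1 and 57.4-fold in sample 2, against a median ratio of highest to lowest probe of 1.69 in sample 1 over 6297 loci with at least 2 detected probes. The ratio was smaller than that of PT8 for 96.7% of these loci. Both probes are named CDS+3'UTR, and whether they differ in binding or in the transcripts they reach was not tested.

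PT4 showed the opposite arrangement to PT2, with its coding-sequence probes bright and its CDS+3'UTR probes dim. The coding-sequence probes gave 9872 ± 987 and 13980 ± 1398 (AF271893) and 4938 ± 494 and 6342 ± 634 (AF493789). The CDS+3'UTR probe AK101380 gave 356 ± 35.6 and 606 ± 60.6. A second such probe, AK063990, gave 241 and 390 and was left out of the averages because its spot carried an outlier flag. At every probe of PT4 sample 2 was the higher sample. The ratio of highest to lowest probe was 27.8 in sample 1, larger than at 93.3% of loci.

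PT1 and PT6 gave dim signals. For PT1 the 3 probes, all named CDS+3'UTR, gave 61.3 ± 6.38 and 80.0 ± 8.18 (AK065075), 89.2 ± 9.11 and 101 ± 10.3 (AK071903), and 102 ± 10.4 and 116 ± 11.7 (AK066911). All lay above the brightest control probe in both samples, and within a small span of each other. For PT6 the probe AF335588 gave 224 ± 22.5 and 188 ± 18.9, and AK119787 gave 69.7 ± 7.15 and 63.4 ± 6.53. The coding-sequence probe of PT6, AY100468, gave 31.2 and 33.7, below the brightest control probe in both samples, and had an absent call in the authors' deposited table. The 2 probes of PT6 above the control probes were both higher in sample 1.

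PT7 and PT11 were not well above background. The 2 probes of PT7 gave 7.73 ± 2.08 and 7.22 ± 2.04 (AK107027) and 6.70 ± 1.64 and 6.68 ± 1.59 (AK121484). These values exceeded the 95th percentile of the negative control spots (2.14 in sample 1 and 2.04 in sample 2) but not the brightest control probe. For PT11 the probes gave 2.00 ± 1.99 and 1.92 ± 1.92 (AF536960) and 2.10 ± 2.10 and 2.03 ± 2.02 (AK062362). Signals of PT11 were about as large as their own errors and near the median of the negative control spots (1.81 and 1.74). No difference between the samples is given for either gene.

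**Figure D1:**
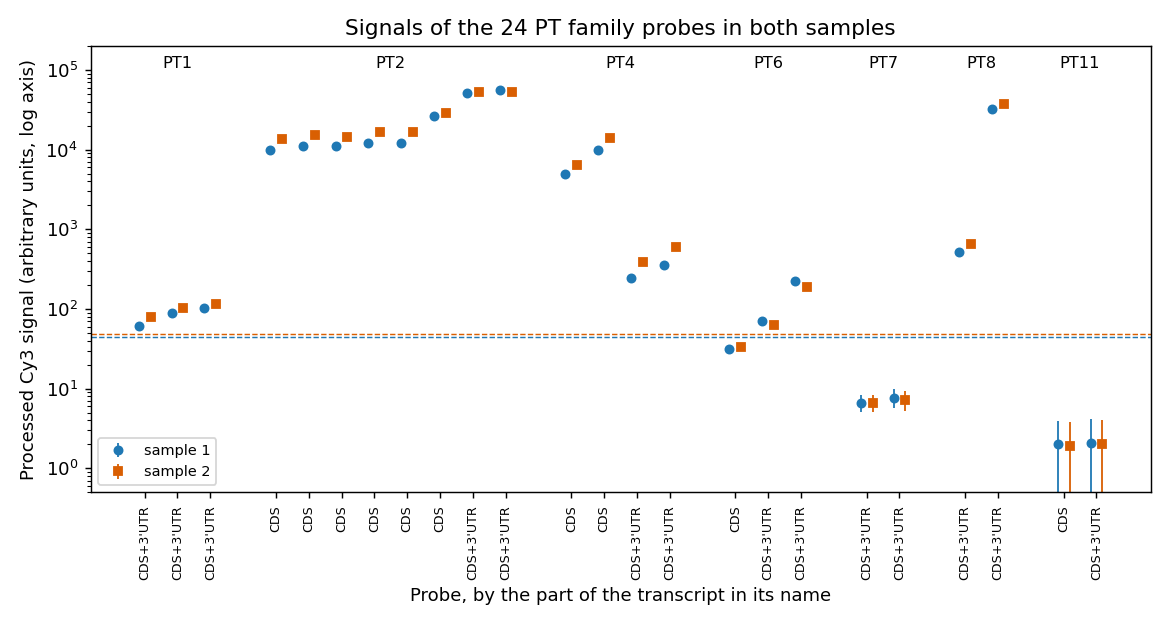
Processed Cy3 signal (log axis, arbitrary units) of the 24 probes of the 7 transporters in sample 1 (circles) and sample 2 (squares), with the scanner software's spot error as bars (for PT11 the bars are cut at the lower edge of the axis) and the brightest random or artificial control probe of each array as dashed lines. The probes of PT2 lie at 9997 or more, those of PT8 at 520 and 32717 in sample 1, and those of PT7 and PT11 below the dashed lines.

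Differences between the samples were taken as sample 2 minus sample 1 on the log2 scale, after each array was scaled to its 75th percentile. At the level of loci, averaged over detected probes, 4 of the 5 detected transporters were higher in sample 2 and PT6 was higher in sample 1, while 55.4% of all detected loci were higher in sample 2. The median difference was 0.22 over the 5 transporters and 0.02 over all 19553 detected loci. By locus the difference was 0.51 for PT4 (SD 0.21 between 3 probes), or 1.42-fold. It was 0.22 for PT2 (SD 0.23, 7 probes), 0.22 for PT8 (SD 0.09, 2 probes), 0.22 for PT1 (SD 0.12, 3 probes) and -0.13 for PT6 (SD 0.19, 3 probes). For PT2 and PT6 the difference was smaller than the spread between the probes of the gene.

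None of the 5 transporters was 2-fold apart, as 2.29% of all detected loci were. PT4 was the 1 transporter at least 1.2-fold higher in sample 2, where 16.1% of detected loci were. By the same threshold 0 of the 5 were higher in sample 1, against 4.69% of detected loci. PT4 exceeded the threshold at each of its 3 probes used, with differences of 0.33, 0.47 and 0.74.

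The size of a difference has to be read against the level of the probe, because dim and bright probes shifted differently over the whole array. When all detected probes were divided into 10 equal groups by level, the median difference was 0.18 in the second-dimmest group and -0.05 in the brightest. The middle 90% of differences spanned -0.38 to 1.28 in that dim group and -0.20 to 0.13 in the brightest. Read this way, the shift of PT1 was not set apart from its surroundings. Its probes differed by 0.15, 0.15 and 0.35, inside the middle 90% of probes of like level, whose medians were 0.13 and 0.18. In the authors' deposited table PT1 averaged -0.01.

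For PT4 all 3 probes lay above the middle 90% of probes of like level. Of the 7 probes used for PT2, 4 lay above it, with differences from 0.32 (AF291813) to 0.44 (AF280999) where the middle 90% ran from -0.20 to 0.16. The other 3 probes of PT2 lay inside it, with 0.09 (AF536959), 0.00 (AY332471) and -0.12 (AK108907). The mean difference of PT2 was thus 0.34 over its 5 coding-sequence probes and -0.06 over its 2 CDS+3'UTR probes. For PT8 the bright probe (0.15) lay just above the upper bound of its group (0.13) and the dim probe (0.28) lay inside. For PT6 the brightest probe (-0.29) lay below its group (-0.25 to 0.62), and the others were inside.

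Over all 18 detected probes of the family, 15 were higher in sample 2. Among all detected probes the share higher in sample 2 ran from 27.9% to 72.2% over the 10 groups by level. Of the 18, 10 differed by more than the error of the difference that follows from the spot errors (0.20 to 0.22 on the log2 scale). How many of all detected probes exceeded such errors was not counted, so these numbers have no background share. Only 4 of the 18 differed by more than 2 such errors, namely the AF280999 and AF281000 probes of PT2 and the AF271893 and AK101380 probes of PT4. Probes of 1 gene may bind the same RNA, and probes of different members may share sequence, so these counts cannot be read as independent observations. The files used here hold no probe sequences, and binding of the coding-sequence probes of PT2 or PT4 to paralogs was not tested.

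**Figure D2:**
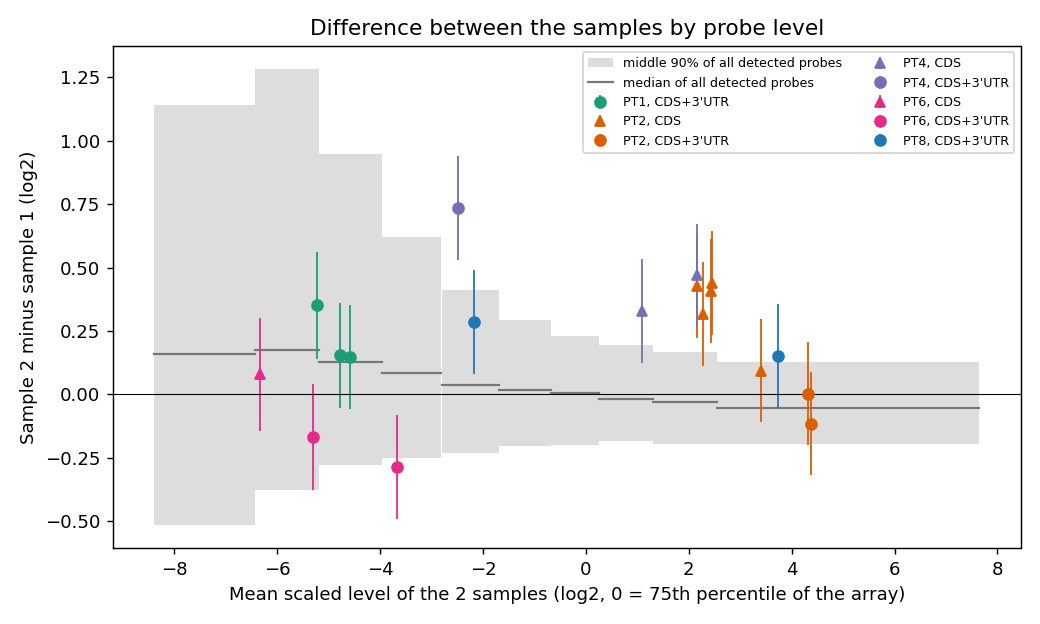
Difference between the samples (sample 2 minus sample 1, log2) against the mean scaled level for the 18 detected probes, with bars for the error that follows from the spot errors, triangles for coding-sequence probes and circles for CDS+3'UTR probes. The grey bands hold the middle 90% of all detected probes in each of 10 groups by level. The PT4 probes and 4 coding-sequence probes of PT2 lie above the band, and the PT1 probes lie within it.

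PT4 and PT8 were higher in sample 2 under every other setting run, as the plot of differences by setting shows. PT4 ranged from 0.40 to 0.74 over 13 other settings and PT8 from 0.12 to 0.25 over 12. Not every setting could change a value. Dropping the filter on dim probes could not move PT4 or PT8, whose probes used were all detected. PT8 has 2 probes, both CDS+3'UTR, so the median over probes and the limit to CDS+3'UTR probes could not move it either. PT2 turned to -0.12 when its brightest probe alone was used. PT6 turned to 0.08 with its coding-sequence probe alone, which lies below the control probes. With median scaling, which moved the median of all loci to -0.08, PT2 and PT8 stood at 0.13 and 0.12, still above that median.

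**Figure D3:**
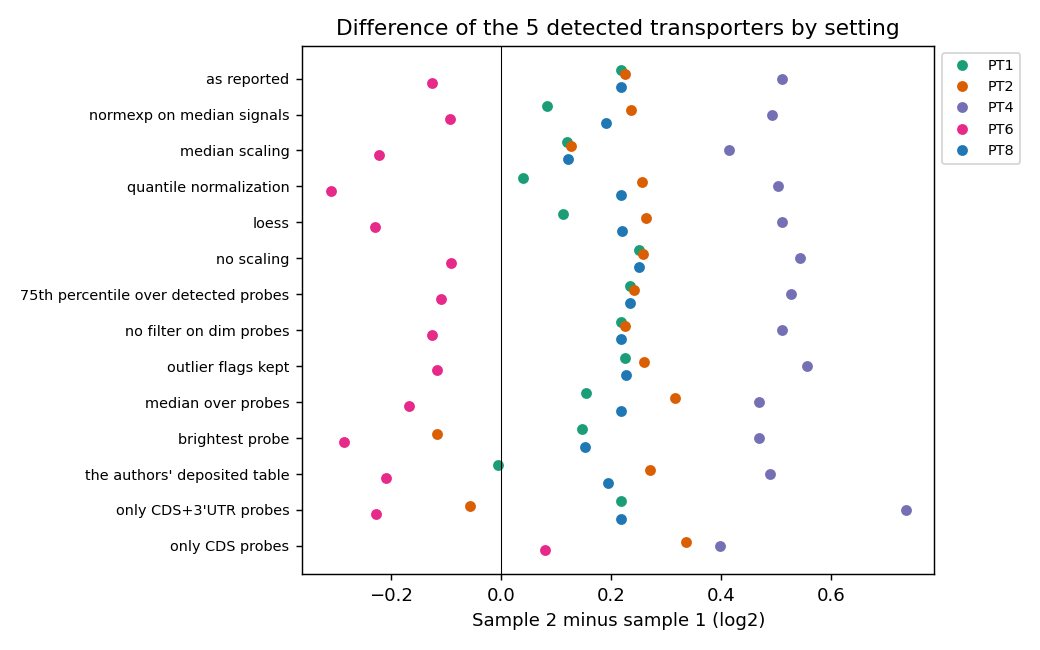
Difference between the samples (sample 2 minus sample 1, log2) of the 5 detected transporters as reported and under each other setting, 1 point per gene and setting (no point where a gene has no probe of that kind). PT4 lies between 0.40 and 0.74, PT8 between 0.12 and 0.25, and PT1, PT2 and PT6 each cross 0 in at least 1 setting.

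Among the other members of the family listed, 5 of 6 had a probe used here and 4 of these were detected, beside 83.9% of all loci. PT3, the neighbour of PT8, gave 3065 ± 307 and 4497 ± 450 at 1 coding-sequence probe, a difference of 0.52, above the middle 90% of probes of like level (-0.18 to 0.20). PT9, a high-affinity carrier of roots, gave 633 and 745 (0.20), inside it (-0.23 to 0.41). The signals of PT5 (20.0 and 14.8) and PT13 (16.5 and 16.8) stayed below the brightest control probe, and PT12 (1.57 and 1.45) was not well above background. PT10 was not analysed here. Of these paralogs, PT3 was at least 1.2-fold higher in sample 2, as were 16.1% of all detected loci. PT5 was at least 1.2-fold higher in sample 1, as were 4.69% of them.

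Genes of phosphate regulation, export and vacuolar transport, and of transporter trafficking, were compared in the same way. PHF1, which lets the transporters leave the endoplasmic reticulum, gave 25336 ± 2534 and 24536 ± 2454 (-0.08). PHR2, the transcription factor of the phosphate starvation response, gave 7723 and 7987 at its brighter probe, and -0.02 over both probes. PHO1;2, which exports phosphate to the xylem, gave 132 ± 13.3 and 110 ± 11.2 (-0.30). This difference lay just below the middle 90% of probes of like level (-0.28 to 0.95). PHO2, the ubiquitin-conjugating enzyme that lowers transporter abundance, was not analysed here. Of 16 regulator, export and vacuolar loci with a probe used here, 13 were detected, beside 83.9% of all loci. Of the 13, 6 were higher in sample 2, beside 55.4% of all detected loci, and 7 were higher in sample 1. Their median difference was -0.01. At least 1.2-fold higher in sample 2 were 3 of the 13, beside the 16.1% of all detected loci. In sample 1, 1 was so, PHO1;2, beside 4.69% of all detected loci. The 3 were SPX1 (413 and 597, 0.50), SPX3 (83.7 and 153, 0.84) and SPX5 (86.4 and 151, 0.77), all SPX proteins, sensors of phosphate status. The other SPX loci among the regulators, SPX2 (-0.06), SPX4 (-0.05) and SPX6 (0.18), stayed under this threshold. Both probes of SPX1 lay above the middle 90% of probes of like level (-0.23 to 0.41), while SPX3 and SPX5 lay inside it (-0.28 to 0.95). The SPX loci were named after their values were seen.

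Markers of other tissues also stood apart between the samples. These lists were chosen with earlier results of these data known, so the counts below are description only. All 10 green tissue markers were higher in sample 2, beside 55.4% of all detected loci. Their median difference was 2.01 (0.14 to 4.11). Their summed signal was 3370 in sample 1 and 6065 in sample 2. By their highest probe, 5 of the 10 exceeded the brightest control probe in both samples, beside 69.5% of all loci. The others gave only 10.2 to 36.1 in sample 1, below that control probe. Dim probes rose over the whole array. In the 3 dimmest groups by level, 66.5% to 72.2% of detected probes were higher in sample 2. The middle 90% of differences in these groups reached up to 0.95 to 1.28. Probes of 1 locus could also disagree, as for Os03g0592500 (-0.19 to 3.57). Of 8 seed markers, 6 were detected in both samples, beside 83.9% of all loci. All 6 were higher in sample 1, while 55.4% of all detected loci were higher in sample 2. The summed signal over the 8 was 9732 and 436. By the highest probe of each, 4 of the 8 exceeded the brightest control probe in both samples, beside 69.5% of all loci. Of 6 stele and endodermis markers 2 were detected in both samples, PHO1;2 and CASP1, beside 83.9% of all loci. Both markers were higher in sample 1, while, as above, 55.4% of all detected loci were higher in sample 2. The summed signal over the list was 279 and 217. SHR1 was well above background in sample 2 alone (3.82 and 10.2), with both signals below the brightest control probe. SCR1 (1.93 and 1.78), SCR2 (2.01 and 1.92) and HKT1;5 (1.94 and 1.91) were near the negative control spots in both samples. The root hair growth markers differed by -0.07 to 0.12. The part of these tissues in the shift of PT4 and PT2 was not tested, and in bulk RNA fewer cells of a type and less RNA per cell cannot be told apart.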

How the data were processed

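Scans were read with Agilent Feature Extraction (11.5.1.1 in the deposited file headers, 9.1 in the submitters' processing notes). The deposited intensity is the processed Cy3 signal, background-subtracted and detrended within the array, with a spot error. The probe design refers to IRGSP5 per the file headers. A deposited table gives 1 column of log2 values per sample and a present or absent call, and no source used here says how the authors made it. Both samples shared 1 slide and 1 scan, so no batch could be compared.

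Of 45151 spots, 1417 scanner controls, 590 named control spots and 1436 with an outlier flag were left out, 2 of the last among the members (22 of 24 probes remained). log2 signals were scaled by subtracting each array's 75th percentile (signals of 2583 and 2643). Spots of a probe were averaged, then probes detected on both arrays within a locus. The signal of a locus is the geometric mean of these probes. With 2 arrays of 1 group no p-value was computed, and the number of arrays limits the precision. The averaging was tested on simulated data. Alternatives used limma 3.58.1.

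Members and lists were chosen with earlier results of these data known. By rule the text names the 7 members, the other PT loci, PHO1;2, PHF1, PHR2, PHO2 and markers. The SPX loci among the regulators were named in addition, outside this rule, after their values were seen. Symbols of the 7 members each matched 1 RefSeq gene on the chromosome of the locus (ASM3414082v1), which lists 0 of their locus identifiers, so coordinates are not given. The names of PT9, PHF1, PHO2 and RBOH5 were not matched there and rest on rice nomenclature. No sequence is printed because the sources used here hold none.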

Additional observations from a re-analysis of the deposited data

How the results depend on the processing

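The count of 5 detected transporters was unchanged under all 6 alternatives, the samples taken singly included (5 in each). The count above the control probes was 5 or 6 over 3 alternatives. The median difference ranged from 0.12 to 0.25 and the count higher in sample 2 from 3 to 4 over 12. By gene, PT1 turned to -0.0065 in the authors' deposited table, PT2 to -0.12 with its brightest probe and to -0.057 with CDS+3'UTR probes only, and PT6 to 0.079 with coding-sequence probes only. For PT1 the value fell to 0.08 with normexp correction and 0.04 with quantile normalization, and PT4 rose to 0.74 with CDS+3'UTR probes only. The causes were not tested. Normexp was run on median spot signals, and the settings by probe part were added, after the data had been seen. Normexp on mean spot signals was not run, since the scanner files used here give medians. Without 1 sample no difference exists. No paired analysis was possible because there is 1 group. Depth is limited by signal over background: PT7 and PT11 give no measurable difference.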
